A study of Mus musculus with 2 samples.

Results

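The small RNAs described here come from positions of the mouse genome where no gene is annotated. Among the distinct sequences of both libraries, here called tags, 725090 held no undetermined base, and 23041 of these had 1 to 60 perfect matches in mm9 (NCBI build 37), none of which overlapped a gene of GENCODE M1 on either strand. Tags were grouped by their first 18 nucleotides into starts, so that products that begin at the same base and end at different ones are counted together. Of 14385 intergenic starts with any read, 329 had at least 20 reads in both libraries together, out of 1826 starts of that depth among all perfectly matching tags. These 329 starts held 2155 tags and 33183 reads, which is 50.4% of the 65898 reads on intergenic tags, and they lay at 97 loci, a locus being a run of starts within 100 bases of each other on 1 strand. Of the 23041 tags, 78.4% had been read once, and 3151 were present in both libraries.

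All reads came from the brains of male mice of the inbred strain C57BL/6J, aged 5 months (young) or 24 to 25 months (old). From 10 µg of total RNA per mouse the RNA of 18 to 30 nucleotides was cut from a gel and given adapters, and cDNA from the 2 mice of an age was pooled into 1 library. The young library held 4523267 reads and the old library 6658732. There was thus 1 library per age and no replicate error: every interval and test below covers counting error only. The reads are PCR copies rather than single molecules, so a test on them sets one library against the other and does not test age.

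The libraries differed beyond their depth. An undetermined base was found in 4.57% (young) and 1.07% (old) of reads, and 68.4% and 70.8% matched the genome perfectly. Over all 1826 starts the log2 ratio (old/young) of reads per total reads fell with GC content, with a fitted slope of -2.84 per unit of GC fraction. Of the brain miRNAs, miR-128 had 103163 young and 89971 old reads, miR-9 had 19900 in each and miR-132 had 1013 and 1090. Those of red blood cells, miR-451a and miR-144, had 1155 and 901, and 179 and 157 reads, and miR-204, abundant in the choroid plexus, 304 and 148. The part of these differences in the results below was not tested, and in a bulk sample fewer cells of a type and less RNA per cell cannot be told apart.

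Transfer RNAs (tRNAs) carry amino acids to the ribosome. RNA polymerase III transcribes them from many nearly identical copies, with a leader and a trailer that are removed and a CCA triplet that is added to the 3′ end, and the trailer ends where the polymerase stops in a run of T. Cleavage of tRNAs leaves short fragments of the 5′ or 3′ part, and trailers are also found as small RNAs. A tag that lies outside every annotated gene can still belong to a known RNA, because gene catalogues leave out most nuclear tRNAs, ribosomal RNA repeats and some miRNA hairpins.

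The largest group of intergenic starts was not tRNA. A total of 157 of the 329 starts resembled 18S ribosomal RNA, the RNA of the small ribosomal subunit, with 146 perfect matches to a window of 2000 bases, chr17:39983048-39985047, and 11 with 1 mismatch to it. Nuclear tRNAs, recognised by a cloverleaf fold in the genomic sequence around a match, accounted for 57 starts, the mitochondrial genome or its nuclear copies for 22, and RefSeq miRNA hairpins missing from GENCODE M1 for 5. The remaining 88 starts belonged to none of these. Ribosomal RNA outside the 18S window, 28S RNA included, was not looked for, so fragments of it may be among the 88, and the genomic positions given for them below are matches only. By reads, tRNA starts took 24.1% of the young reads on intergenic starts (95% Wilson interval 23.5 to 24.7%) and 18.7% of the old reads (18.1 to 19.3%), and 18S-like starts 31.3% (30.6 to 32.01%) and 31.8% (31.0 to 32.5%).

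Most fragments on the tRNA starts were of 3 kinds, each shown by the most read tag of a start. Tags that end in the added CCA and have no perfect match are not among them. Fragments of the 5′ end are printed first, because they include the most read tRNA start.
tRNA-Lys-TTT 5′ end: gcccggatagctcagtcggtag
tRNA-Leu-CAG 5′ end: gtcaggatggccgagcggtctaaggc
tRNA-Ala-AGC 5′ end: ggggaattagctcaaatggta

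Internal fragments are printed because most of them ended at the same base of the tRNA. The capitals mark the anticodon where the tag holds it, and the final T or TT, which is T54, the first base of the T loop, or T54 with T55 after it.
tRNA-Arg-CCG internal: CCGgagctggggattgtgggT
tRNA-Pro-CGG internal: tCGGgtgcgagaggtcccgggT
tRNA-Pro-TGG internal: tTGGgtgcgagaggtcccgggT
tRNA-Leu-CAA internal: ccgaatggaggcgtgggT
tRNA-Leu-TAG internal: tcttcggaggcgtgggTT
tRNA-Pro-TGG internal, D-arm side: aggggtatgattctcggt

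Trailers, and a fragment that runs from the 3′ end of a tRNA into its trailer, are printed for their last bases, the run of T in capitals.
tRNA-Asp-GTC trailer: tctggacacatgtggcTTTT
tRNA-Arg-ACG trailer: ttgggactggtactccTTT
tRNA-Cys-GCA trailer: tggtgggtgcatatgTTT
tRNA-Leu-CAA 3′ end and trailer: tctgacacagtactcTTTT

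Outside the tRNAs, the most read intergenic locus was a ladder of starts on the minus strand of chromosome 2, whose most read tags had different 5′ ends and 1 common 3′ end. The capitals mark the stretch that 8 of its 11 starts share.
ladder start at 72850824: agcagccGACTTAGAACTGGTGCGGA
ladder start at 72850821: agccGACTTAGAACTGGTGCGGA
ladder start at 72850819: ccGACTTAGAACTGGTGCGGA
ladder start at 72850817: GACTTAGAACTGGTGCGGA

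Some intergenic tags differed from an annotated RNA by 1 base. For 3 of them the pair is printed with that base in capitals, the intergenic tag first and the first 18 bases of the annotated product after it.
chromosome 5 tag: tCagtaagcattagactgta
mt-Ty product: tGagtaagcattagactg
chromosome 9 tag near Gm10715: gCacagtactgtgataactga
Mir101a product: gTacagtactgtgataac
chromosome 9 tag, single locus: taggctGgagagaggttgg
AC149277.1 product: taggctAgagagaggttg

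The start with the largest rise among those with at least 50 reads is printed because its first 15 bases are also found in the mitochondrial gene mt-Rnr2. The rest of the tag is CCA.
chromosome 3 tag near Rpe65: aggacaagagaaatacca

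The RefSeq miRNA hairpins outside GENCODE M1 gave these mature-strand tags, with the seed (bases 2 to 8) in capitals.
Mir668: tGTCACTCggctcggcccact
Mir376c: aACATAGAggaaatttcacgt
Mir7j: tGAGGTATtagtttgtgctgtt

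Intergenic reads made up a larger share of the young library. All 23041 tags together had 34457 young and 31441 old reads, or 0.762% (95% Wilson interval 0.754 to 0.770%) and 0.472% (0.467 to 0.477%) of the libraries. Tags with exactly 1 perfect match, 18011 of the 23041, gave 0.518% and 0.322%. Counting an overlap with a gene on its own strand only let in tags antisense to genes and raised the shares to 2.24% and 1.81%. Among all intergenic reads, including tags below the depth of a start, tRNA loci took 19.7% of the young reads (19.3 to 20.2%) and 15.7% of the old reads (15.3 to 16.2%).

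Of the 329 starts, 12 were at least 2-fold higher and 123 at least 2-fold lower in the old library per total reads, against 5.86% and 29.6% of all 1826 starts. The 12 are 3.65% of the intergenic starts and the 123 are 37.4%. In an exact two-sided binomial test on the reads, with Benjamini-Hochberg adjustment over all 1826 starts and an adjusted p under 0.05 as the limit, 11 were called higher and 140 lower, where the same test called 8.38% of all starts higher and 39.0% lower. The 140 are 42.6% of the intergenic starts, and 107 starts were past both limits downward and 5 upward. The median log2 ratio was -0.73 for the intergenic starts and -0.52 for all starts. With edgeR's TMM factors or DESeq2's size factors as the depth, every log2 ratio shifts by 0.52, the median of all starts becomes 0.00 and that of the intergenic starts -0.21, with 34 starts at least 2-fold higher and 77 lower. With TMM factors these are 10.3% and 23.4% of the intergenic starts, beside 14.6% and 13.9% of all starts. The test then called 9.73% of the intergenic starts higher and 20.1% lower, beside 19.5% and 19.8% of all starts. The ratios below are on total reads unless stated, and are best read against the median of -0.52.

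Among other classes of start, those in mitochondrial tRNA genes (185 starts) had a median log2 ratio of 0.03, those in miRNA genes (632) -0.63, in snoRNA genes (79) -0.77 and in other genes (462) -0.48. The share at least 2-fold lower was 9.73% for mitochondrial tRNAs, 31.2% for miRNAs, 34.2% for snoRNAs and 31.4% for other genes. The intergenic share of 37.4% lay nearest to that of snoRNA genes.

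**Figure D1:**
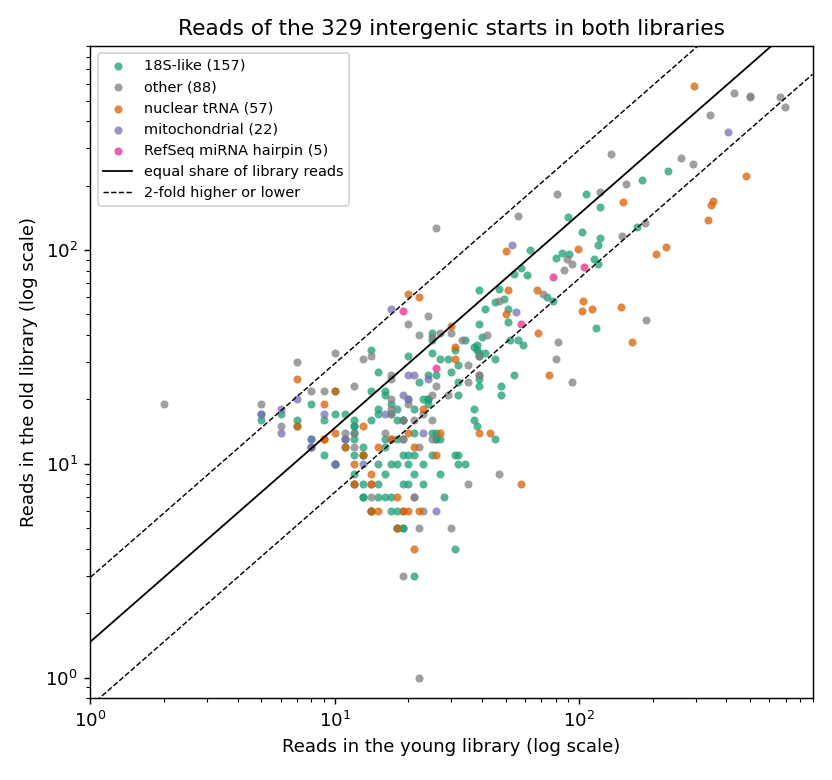
Reads of each of the 329 intergenic starts in the young (x axis) and the old library (y axis), both on log scales, 1 point per start, coloured by class; the solid line marks an equal share of both libraries and the dashed lines a 2-fold difference. Points of the nuclear tRNA class lie below the lower dashed line for 31 of 57 starts.

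The nuclear tRNA starts had 4202 young and 2945 old reads, and 31 of the 57 (54.4%) were at least 2-fold lower in the old library, beside 29.6% of all starts. The median log2 ratio of the class was -1.20, with a range from -3.42 to 1.28, and -0.67 with TMM factors. The exact binomial test called 30 of the 57 starts lower and 3 higher, where it called 39.0% of all starts lower and 8.38% higher. Their median GC content was 55.6%, and with the GC trend of all starts removed the median was -1.02. The starts matched 101 tRNA copies of 13 amino acids and 23 anticodons, and 27 of them had a single position in the genome. These single-position starts had a median of -1.54 and the 30 with several copies one of -0.93.

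Fragments of different parts of the tRNA had different ratios, which were not tested against each other. The 10 starts at the 5′ end had 704 young and 1101 old reads and a median log2 ratio of -0.37, which turns to 0.16 with TMM factors. The 32 internal starts had 2675 young and 1265 old reads and a median of -1.63 (-1.10 with TMM factors), and 24 of them were at least 2-fold lower and 1 at least 2-fold higher. The 10 starts after the 3′ end had 731 young and 420 old reads and a median of -1.33. Internal fragments made up 55.1% of all reads on tRNA starts, those of the 5′ end 25.3% and those after the 3′ end 16.1%. A single start, on tRNA-Lys-TTT, lay at the 3′ end within the tRNA, with 9 young and 13 old reads. Tags that end in the added CCA and have no perfect match are not among these starts or in these shares. Such tags had 2584 young and 1733 old reads and are described further below.

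**Figure D2:**
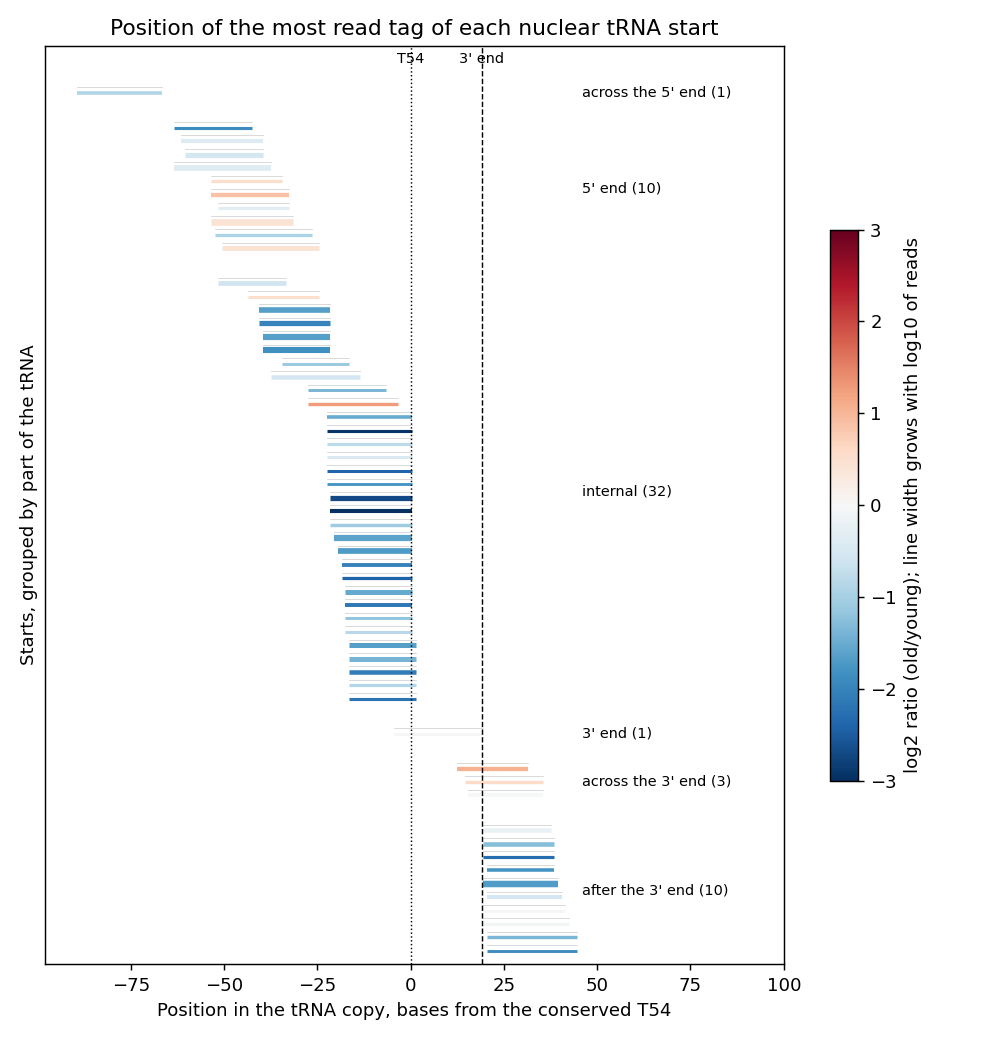
Position of the most read tag of each of the 57 nuclear tRNA starts, in bases from T54 (x axis), with starts stacked by part of the tRNA; colour gives the log2 ratio (old/young) and line width the reads. Of the 32 internal tags, 22 end at the dotted line or 1 base after it, and all 22 have a ratio below 0 on total reads.

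Most internal fragments ended at the same place. Of the 32, 17 ended at T54 and 5 at T55. A tag of 18 nucleotides ends at the last base used for the grouping, the shortest length that a start can hold. All 5 tags that ended at T55 had this length, and the 17 that ended at T54 had 18 to 23 nucleotides. The 22 starts came from tRNAs for leucine (9), arginine (6), proline (3), aspartate (2), serine (1) and tryptophan (1). Among the 272 intergenic starts outside tRNAs, the most read tag ended in T at all in 87. The 22 starts had 1482 young and 644 old reads, a median log2 ratio of -1.67 (-1.15 with TMM factors) and a range from -3.42 to -0.43 (to 0.09 with TMM factors), and 18 (81.8%) were at least 2-fold lower, beside 29.6% of all starts. The other 10 internal starts had 1193 young and 621 old reads and a median of -1.25.

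The most read fragment that ended at T54 began at the anticodon of tRNA-Arg-CCG on chromosome 11 (chr11:106874213-106874233, plus strand, 8159 bases from the pseudogene Gm11708). It had 351 young and 170 old reads, 77.6 and 25.5 rpm (reads scaled to the same library total), a log2 ratio of -1.60 (counting SE 0.13). The 4 starts of this tRNA together had 612 young and 290 old reads, and 90.6% of those reads ended at the same base. In rpm the young level was above the old one in each of the 4, with log2 ratios from -2.43 to -0.80. Of all arginine starts, 6 of 7 were called lower, where the test called 39.0% of all starts lower.

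Among tRNA starts with at least 50 reads, the largest falls were on proline tRNAs. A fragment of tRNA-Pro-TGG that began 1 base before the anticodon and ended at T54 (chr3:51162307-51162328 and other copies, 4 positions) had 58 young and 8 old reads, a log2 ratio of -3.42 (counting SE 0.54; exact binomial test, Benjamini-Hochberg adjusted p = 2.68e-14). Its counterpart on tRNA-Pro-CGG, printed beside it (chr1:167572421-167572442, minus strand, 3 positions), had 164 young and 37 old reads, with a log2 ratio of -2.71. Both were called lower.
Proline fragments from the D-arm side ended 22 bases before T54. The start common to tRNA-Pro-AGG, tRNA-Pro-CGG and tRNA-Pro-TGG (15 positions, for example chr1:167572443-167572460 on the minus strand) had 346 young and 162 old reads, a log2 ratio of -1.65, and the start 1 base upstream of it had 148 and 54, a log2 ratio of -2.01. A tRNA-Pro-TGG copy on chromosome 7 (chr7:105963938-105963955, 19684 bases from Wnt11), whose tag is printed above, had 336 young and 138 old reads at its only position, a log2 ratio of -1.84 (counting SE 0.15). Over all 8 proline starts there were 1293 young and 513 old reads, 7 starts were called lower (39.0% of all starts were), and the median was -1.93.

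Leucine tRNAs had the most starts, 17, with 944 young and 708 old reads. Fragments of tRNA-Leu-AAG (chr7:128061077-128061094, 181 bases from Polr3e, 5 positions) had 75 young and 26 old reads, a log2 ratio of -2.09. The copy of tRNA-Leu-CAA at chr11:58115995-58116012 had 103 young and 52 old reads, and its 3 starts together 161 and 72. Those of tRNA-Leu-TAG had 113 and 53 reads at chr11:68937789-68937806 and 104 and 58 at chr7:127979011-127979028. All of these ended at T54 or T55 and were called lower.

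Lysine was the isotype with the most reads on the other side. The 5′ end of tRNA-Lys-TTT (6 positions, for example chr1:134930539-134930560, 8596 bases from Mdm4) had 294 young and 585 old reads, 65.0 and 87.9 rpm. Its log2 ratio of 0.43 (counting SE 0.10; exact binomial test, Benjamini-Hochberg adjusted p = 8.78e-05) was called higher, and with TMM factors it was 0.96. The start 3 bases downstream, with 50 young and 99 old reads, had the same ratio of 0.43 and did not pass the test (exact binomial test, Benjamini-Hochberg adjusted p = 0.164). Over the 5 lysine starts there were 373 young and 727 old reads.
The 5′ end of tRNA-Ala-AGC (chr13:23523281-23523301 and 1 other copy) had 22 young and 60 old reads and was also called higher, with a log2 ratio of 0.89 (counting SE 0.36; exact binomial test, Benjamini-Hochberg adjusted p = 0.0299). The 5′ end of tRNA-Leu-CAG (8 positions, for example chr1:172968745-172968770) had 151 young and 167 old reads, with a log2 ratio of -0.41 on total reads, called lower, which becomes 0.11 with TMM factors. On total reads the 5′ ends lay on both sides of 0, with 4 starts above and 6 below.

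Most trailers ended in a run of T. Of the 13 starts that lay after or across the 3′ end of a tRNA, 10 had a most read tag that ended in TTT, against 5 of the other 316 intergenic starts (1.58%). The trailer of tRNA-Asp-GTC (chr13:22003254-22003273, plus strand, 6601 bases from the pseudogene Gm11279), which had a single position, was the most read, with 480 young and 221 old reads, 106 and 33.2 rpm. Its log2 ratio was -1.68 (counting SE 0.12; exact binomial test, Benjamini-Hochberg adjusted p = 2.62e-49), and it was called lower.
The trailer of tRNA-Arg-ACG (chr14:55136606-55136624) had 68 young and 41 old reads, and that of tRNA-Cys-GCA (chr11:97658458-97658475) 51 and 65, log2 ratios of -1.29 and -0.21 (the latter 0.32 with TMM factors). The 2 starts of the tRNA-Ser-TGA trailer (chr10:62892205-62892223, minus strand, 624 bases from Ctnna3) had 26 young and 11 old reads, and 20 and 6, and both were called lower. Those across the 3′ end of tRNA-Tyr-GTA (chr5:31190540-31190560, 526 bases from Agbl5) had 30 and 44 reads, and 10 and 22, and neither passed the test. In contrast, the tag across the 3′ end of tRNA-Leu-CAA (chr13:21292171-21292189, 5578 bases from Trim27) had 20 young and 62 old reads, a log2 ratio of 1.07 (counting SE 0.37; exact binomial test, Benjamini-Hochberg adjusted p = 0.00869). An internal start of the same tRNA copy, chr13:21292141-21292158, had 43 young and 14 old reads, a log2 ratio of -2.18, so products of 1 tRNA copy lay on opposite sides of 0, with TMM factors too.

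**Figure D3:**
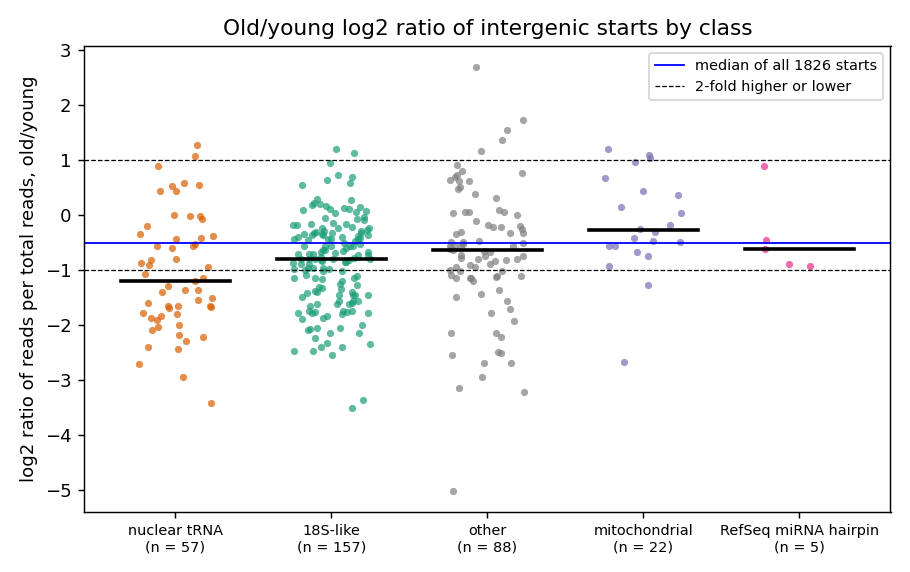
Log2 ratio (old/young) of reads per total reads for each intergenic start by class, with the class median as a black bar, the median of all 1826 starts as a blue line and 2-fold differences as dashed lines. The median of the nuclear tRNA class is -1.20 and that of the mitochondrial class -0.28.

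The 18S-like starts had 5462 young and 5000 old reads and a median log2 ratio of -0.80, which is -0.27 with TMM factors. Of the 157, 61 (38.9%) were at least 2-fold lower and 2 at least 2-fold higher, beside 29.6% and 5.86% of all starts. Ribosomal RNA is transcribed from repeated units that an assembly holds only in part, and the matches lay in the window on chromosome 17 and in copies on chromosome 6 and others, and 42 starts had a single position. The starts were not spread evenly: they formed 17 clusters between bases 386 and 1974 of the window.
The largest cluster, starts from base 917 to 939, had 1816 young and 1815 old reads, a log2 ratio of -0.56 (-0.03 with TMM factors). Its most read start, chr17:39983980-39983997, 1068 bases from the pseudogene AY036118, had 231 young and 235 old reads. The start at chr6:3151118-3151137 in the same cluster had 122 and 158, with a log2 ratio of -0.18 (0.34 with TMM factors).
The second cluster by reads, bases 1429 to 1482, had 1150 young and 1396 old reads, with a log2 ratio of -0.28 (0.25 with TMM factors), and held the start chr17:39984524-39984543 with 107 and 183 reads and chr6:3151630-3151652 with 90 and 142. Other clusters had lower ratios. That of bases 1213 to 1241 had 319 young and 186 old reads (log2 ratio -1.34), that of 1280 to 1296 had 523 and 309 (-1.32), and that of 1603 to 1610 had 167 and 81 (-1.60). These 3 also stayed below 0 with TMM factors, at -0.81, -0.79 and -1.08.

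Some single starts of the 18S-like class had ratios further below 0. The start chr6:3151486-3151503 had 117 young and 43 old reads, a log2 ratio of -2.00. The start chr6:3151339-3151363 had 48 and 21 reads (-1.75), and chr17:39983986-39984004, in the largest cluster and 6 bases after its most read start, 37 and 18 (-1.60). Only the cluster at bases 1728 to 1729 was above 0 on total reads, with 29 young and 61 old reads and a ratio of 0.51.

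**Figure D4:**
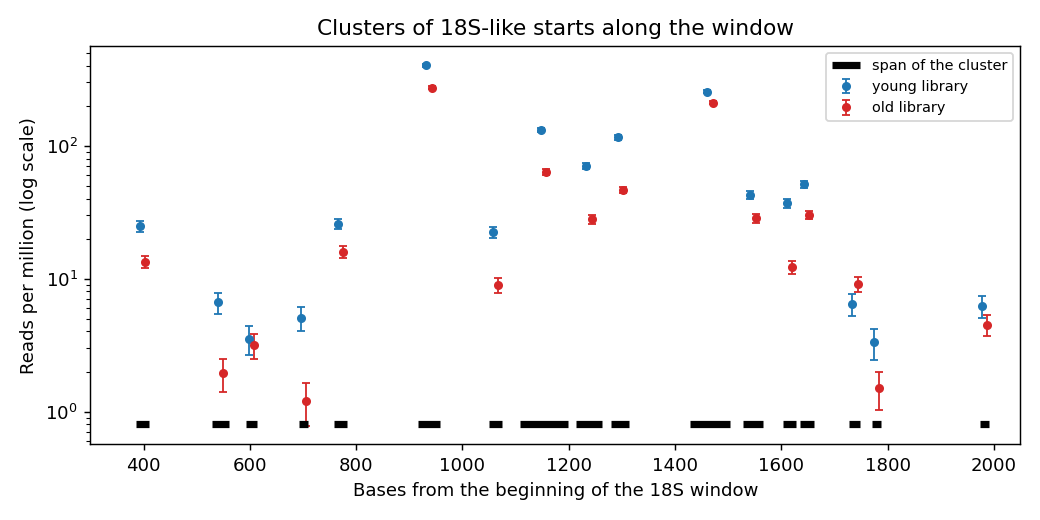
Reads scaled to the same library total (rpm, log scale) of the 17 clusters of 18S-like starts against their distance in bases from the beginning of the 18S window, young and old library side by side; error bars are the counting SE and black bars the span of a cluster. The highest points are the cluster at bases 917 to 939, with 401 young and 273 old rpm, and the one at bases 1429 to 1482, with 254 and 210.

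Ribosomal RNA other than that of the small subunit was not looked for, so the ladders described next may come from it. Their positions are matches only. The chromosome 2 ladder held more reads than any other intergenic locus. Its 11 starts (chr2:72850792-72850826, minus strand, 92 bases from the annotated miRNA gene AL844840.2 at its most read start) had 2648 young and 2848 old reads together, a log2 ratio of -0.45 that becomes 0.07 with TMM factors. The most read tag of 8 starts ended at base 72850799, and 29.4% of all reads ended there, while no single 5′ end held more than 18.7%. The start at 72850819 had 501 young and 525 old reads, a log2 ratio of -0.49 (0.03 with TMM factors), and the one at 72850821 had 431 and 544, a ratio of -0.22 (0.30 with TMM factors). Among the starts of the ladder the log2 ratios ran from -0.92 to 0.30. A cluster of 3 starts on chromosome 17, led by chr17:50559473-50559490 on the minus strand with a tag that lies within the stretch in capitals, had 102 young and 83 old reads. That tag, 71 young and 62 old reads, matches the ladder on chromosome 2 equally well, and its source cannot be told apart. It differs from the annotated miRNA gene AC154124.1 by T12G, counted from the 5′ end with the annotated base first, and the annotated form had 1 young read and no old read.

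A second ladder lay on chromosome 3. Its 17 starts (chr3:5860612-5860703, plus strand, 284397 bases from Pxmp3, the nearest gene, at its most read start) had 1041 young and 1447 old reads, and the most read tag of 6 of them ended at base 5860659. The start at 5860636 had 135 young and 281 old reads, a log2 ratio of 0.50 (exact binomial test, Benjamini-Hochberg adjusted p = 0.00255), and those at 5860637 and 5860638 had 56 and 144, and 81 and 182. All 3 were called higher. The start at 5860634, 2 bases before the first of these, with the same 3′ end, had 80 young and 31 old reads, a log2 ratio of -1.93, and was called lower. Starts of 1 ladder thus ran from -3.22 to 0.80, and a shift of the 5′ end by 2 bases went with a change of sign. The ratios at 5860634 and 5860636 keep their signs with TMM factors, at -1.40 and 1.02. These starts also differed in length. At 5860634, 99.1% of the reads were 1 tag of 26 nucleotides, the longest length in the files. The most read tag at 5860636 had 24. Among all intergenic reads, tags of 26 nucleotides took 4.81% (young) and 4.22% (old). The part of length in these ratios was not tested. Both starts also have a position on chromosome 18.

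Of the single-position starts, the most read was chr9:67516153-67516171 on the minus strand, 90349 bases from M5C1000I18Rik. It had 660 young and 520 old reads, 146 and 78.1 rpm, and a log2 ratio of -0.90 (counting SE 0.08). It differs from a stretch of the annotated miRNA gene AC149277.1 by A7G, and that stretch itself had 171 young and 104 old reads, so the intergenic form was the more abundant in both libraries.
A tag on chromosome 18 (chr18:84824920-84824937, 3395 bases from the pseudogene Gm7289) had 697 young and 467 old reads, a log2 ratio of -1.14. Its letters equal the last 15 bases of the mitochondrial mt-Tv gene followed by CCA, so its genomic position and a mature mt-Tv 3′ end cannot be told apart. The start chr11:108873390-108873414 on the minus strand, 3319 bases from the pseudogene Gm11668, had 185 young and 134 old reads, a log2 ratio of -1.02. All 3 were called lower in the exact binomial test.

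The largest rise among starts with at least 50 reads was at chr3:159296260-159296277, plus strand, 8497 bases from Rpe65. This tag of 18 bases had 26 young and 127 old reads, a log2 ratio of 1.73 (counting SE 0.31; exact binomial test, Benjamini-Hochberg adjusted p = 3.67e-09), and 2.25 with TMM factors. Its first 15 bases are also those of chrM:2571-2585, inside mt-Rnr2, the mitochondrial large ribosomal RNA, a comparison made after its values were seen. The bases after these 15 are CCA, as at the end of the chromosome 18 tag. Whether the tag was read from chromosome 3 or from a mitochondrial RNA was not tested.
A larger ratio rested on few reads. The start chr6:36795837-36795858, 185 bases from Dgki, had 2 young and 19 old reads, a log2 ratio of 2.69, and was named after its values were seen.

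Ratios below -2 were also found at loci of staggered starts outside tRNAs. On chromosome 9, 7 starts at chr9:3258848-3258880 on the minus strand had 180 young and 61 old reads together, a log2 ratio of -2.12. Its start at chr9:3258857-3258874, 175 bases from AC140318.1, had 47 and 9, a log2 ratio of -2.94. At chr2:22600385-22600408, minus strand, 3 starts had 66 young and 12 old reads, a log2 ratio of -3.02, and were named after their values were seen. The most extreme of them had 22 young reads and 1 old read. The sums of both loci stayed below -1 with TMM factors, at -1.59 and -2.49.

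Further loci of the 88 starts, likewise not searched for 28S RNA, are given by their reads and were picked after their values were seen. At chr15:85008182-85008212, plus strand, 28197 bases from Fbln1, 6 starts had 167 young and 154 old reads, a log2 ratio of -0.67 (-0.15 with TMM factors). At chr9:110183819-110183842, 18742 bases from Cspg5, 5 starts had 93 and 73 reads, a log2 ratio of -0.91. Both were staggered like the larger ladders, with 3 starts at each that shared a 3′ end. The start chr7:30931311-30931329, 5582 bases from the pseudogene Gm10988, had 82 young and 37 old reads, a log2 ratio of -1.71, and was called lower.

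Intergenic tags are set beside the annotated RNAs they resemble, with no test of the difference between their ratios. The chromosome 5 tag (chr5:85047699-85047718, 201311 bases from Epha5) that differs from the mt-Ty product by G2C had 187 young and 47 old reads, a log2 ratio of -2.55, while the annotated mt-Ty start had 64292 and 98240, a ratio of 0.05. The tag was 0.291% of the annotated reads in the young library and 0.0478% in the old. The start 1 base later at the same locus, with the same substituted base (G1C counted from its own 5′ end), had 13 and 31 reads and a ratio of 0.70, and did not pass the test. It was 0.0507% and 0.0518% of the matching annotated start, which had 25663 and 59878 reads.
The tag that differs from Mir101a by T2C (chr9:3038680-3038700 and 6 other positions) had 93 young and 24 old reads, a log2 ratio of -2.51. Its annotated relative had 39638 and 33517, a ratio of -0.80. The tag was 0.235% of the annotated reads in the young and 0.0716% in the old library. For the let-7f relative, which differs by T18G at the last base of the start (chr1:124655795-124655812), there were 20 and 45 reads against 279962 and 868430, and the log2 ratios were 0.61 and 1.08. Whether such tags were read from their own loci or are altered copies of the abundant RNA was not tested.

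Of the 22 mitochondrial starts, 13 had their given position on the minus strand of the control region, the stretch without genes between mt-Tp and mt-Tf that holds the origin of the heavy strand. The most read, chrM:16171-16188 on the minus strand, had 406 young and 356 old reads, a log2 ratio of -0.75. A group of 10 starts at chrM:15613-15647 on the same strand had 210 young and 309 old reads, a log2 ratio of 0.00 (0.52 with TMM factors), and 6 of the 10 ended at base 15623; its leading start, chrM:15623-15642, had 53 and 106. Further along, chrM:16059-16078 had 19 and 21 reads.
Near the light-strand origin, 9 bases from mt-Tc, the start chrM:5165-5183 on the minus strand had 17 young and 53 old reads, a log2 ratio of 1.08 (counting SE 0.40; exact binomial test, Benjamini-Hochberg adjusted p = 0.0174). The 3 staggered starts there had 31 and 79 reads together, a log2 ratio of 0.79 (1.32 with TMM factors). All mitochondrial starts together had 783 young and 865 old reads and a median of -0.28, which turns to 0.24 with TMM factors, and 7 of them matched nuclear copies, such as chr6:9839966-9839988 with 20 and 26 reads and chr3:6049804-6049822 with 23 and 14. Both of these starts also match the minus strand of the control region, with 5′ ends at chrM:15843 and chrM:15724.

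RefSeq lists small RNA genes at some of these positions. The 3 starts of Mir668 (chr12:110972982-110973008, 125 bases from Mir485, in the large miRNA cluster of chromosome 12) had 241 young and 203 old reads, and its leading start had 105 and 83, a log2 ratio of -0.90. The tag of Mir376c (chr12:110960980-110961000, 448 bases from Mir654) had 19 and 52, a log2 ratio of 0.89 (counting SE 0.39; exact binomial test, Benjamini-Hochberg adjusted p = 0.0456). That of Mir7j (chr3:139691245-139691266), whose seed differs from that of Mirlet7i by G8T, had 26 and 28, a log2 ratio of -0.45 (0.07 with TMM factors). BC1 is a small cytoplasmic RNA of neurons made by RNA polymerase III from the Bc1 gene. Its 3′ part was matched by 2 starts (chr7:152100503-152100528). Both had several genomic positions, with up to 4 matches for a tag, and their reads cannot be assigned among these. The 2 starts had 14 young and 32 old reads, and 10 and 33, and neither passed the test. Their most read tags, printed because they share a 3′ end and differ by 1 base at the 5′ end, were these.
Bc1, 14 and 32 reads: aaggtaactggcacacacaaccttt
Bc1, 10 and 33 reads: caaggtaactggcacacacaaccttt

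The classes also differed in the length of their tags, given here as a description. Tags of 20 to 24 nucleotides held 93.0% (young) and 93.3% (old) of the reads on RefSeq hairpin starts, as for annotated miRNAs with 97.8% and 98.8%. On tRNA starts these lengths took 46.1% and 51.5%, and tags of 18 and 19 nucleotides 50.1% and 41.2%. On 18S-like starts 18 and 19 nucleotides took 28.0% and 21.4%. All intergenic tags together had 39.0% and 44.4% of their reads at 20 to 24 nucleotides, and 17.3% and 16.05% at 17 nucleotides, the shortest length in the files, which form no start. The shorter lengths took a larger share in the young library in each of these classes other than the hairpins.

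**Figure D5:**
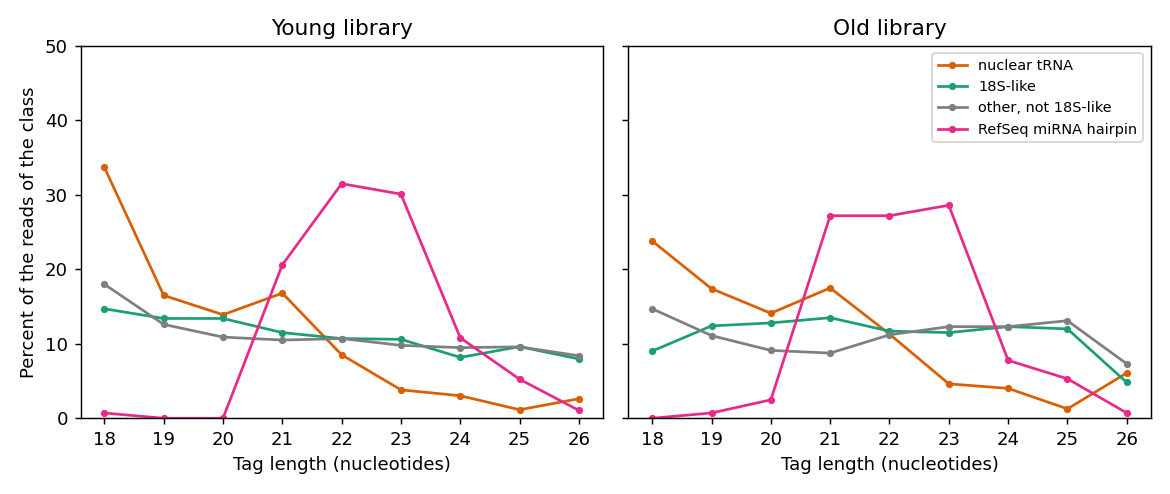
Percent of the reads of a class (y axis) at each tag length from 18 to 26 nucleotides (x axis), young library at left and old library at right, for nuclear tRNA, 18S-like, other and RefSeq miRNA hairpin starts. The hairpin class peaks at 21 to 23 nucleotides, while the tRNA class is highest at 18.

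Starts with 1 and with several genomic positions are set side by side with no test. The 135 starts with a single position had 7643 young and 6199 old reads and a median log2 ratio of -0.80, with 54 at least 2-fold lower. The 194 with several positions had 9798 and 9543 reads, a median of -0.69 and 69 at least 2-fold lower. The 69 are 35.6% of these starts, beside 29.6% of all 1826 starts, and the share of the 54 was larger. The highest number of positions was 15, reached by 4 starts, all in tRNAs. With 1 start per locus, the one with most reads, 37 of 97 starts (38.1%) were at least 2-fold lower, against 28.5% of 1594 starts counted in the same way.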

How the data were processed

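The authors removed the 3′ adapter from Illumina reads, allowing up to 3 mismatches in it, aligned the reads to mm9 with SOAP (version not given in the sources used here) and deposited, for each library, every distinct sequence of 17 to 26 nucleotides with its raw read count. Nothing had been normalised. A text file that describes the format was not used.

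All distinct tags without an undetermined base were matched to both strands of NCBI build 37 (mm9), with no mismatch allowed, and to GENCODE M1 gene extents on either strand. Intergenic tags had 1 to 60 matches and no gene overlap. Tags of 17 nucleotides (4159 of the 23041) cannot form a start and enter the shares of reads only. A start counted only its intergenic tags. Its position is that of 1 match where there were several, and reads cannot be assigned among copies. Unplaced scaffolds carry no annotation and account for 101 young and 102 old reads of the intergenic tags. Adapters were ligated to the RNA, so strand is known.

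Nuclear tRNAs were called where at least 19 of 21 stem pairs (20 with an intron) and at least 5 of 7 conserved bases were present, which happened in none of 2975 snoRNA and snRNA genes searched as a control. Position T54 was set 19 bases before the tRNA's 3′ end. Of 1005 RefSeq miRNA hairpins (GRCm38), 1004 were placed on mm9 by a perfect match of sequence. The 18S window is the 2000 bases before AY036118, beside which RefSeq lists Rn18s-rs5.

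Each start was compared between the libraries by an exact two-sided binomial test on its reads, with the ratio of library totals (1.47, old over young) as the expected ratio, and p-values were Benjamini-Hochberg adjusted over all 1826 starts. A count of 0 was set to 0.5 for log2 ratios. The SE of a log2 ratio is the Poisson counting error. With 1 library per age edgeR's quasi-likelihood test could not be fitted, and edgeR 4.0.16 and DESeq2 1.42.0 in R 4.3.3 gave only other depth factors. Other steps used Python 3.11.15, numpy 2.4.6, scipy 1.17.1 and pandas 2.3.3. Tested on simulated data for this comparison (1826 starts), the test recovered 87.5% of 200 starts changed 4-fold.

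Starts named in the text are, in each class, the 6 with the most reads and the 4 largest rises and 4 largest falls among starts with at least 50 reads past both limits, taking at each locus (a run of starts within 100 bases) only the start with the most reads, or, for rises and falls, the most read of those past the limits. Their neighbours at the same locus are described with them, and further starts are named where the text says so or where they illustrate a group. Of the starts chosen by this rule, 1 is not reported here. The members and lists were chosen with earlier results of these data known.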

Additional observations from a re-analysis of the deposited data

Results flagged for a closer look

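The CCA triplet is added after transcription, and tags that end in it and have no perfect match in the genome are not among the intergenic tags. Matched to the nuclear tRNAs called here with CCA appended, 217 distinct tags of this kind had 2584 young and 1733 old reads, 571 and 260 rpm, where the limit that a count of 0 allows (3 reads per library) is 0.663 and 0.451 rpm. They were looked at because this signal is in reads that none of the comparisons above uses. The log2 ratio of the sums was -1.13, and all 31 tags with at least 20 reads had a ratio below 0 on total reads, from -2.56 to -0.10 with a median of -1.22. The median of all starts was -0.52 on the same measure. TMM factors shift every ratio up by 0.52, which puts the highest of the 31 above 0. Tags of 17 and 18 nucleotides held 76.7% of these reads. The 3 most read are printed with the triplet in capitals.
tRNA-Val-AAC and tRNA-Val-CAC: accgggcggaaacaCCA
tRNA-Tyr-GTA: ttccggctcgaaggaCCA
tRNA-Glu-CTC: ttcccggtcagggaaCCA
The first had 552 young and 490 old reads, the second 228 and 91, and the third 189 and 105.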

How the results depend on the processing

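The measure of depth moved the counts. With TMM or DESeq2 factors 34 intergenic starts were at least 2-fold higher and 77 lower, and 32 and 66 were called by the exact binomial test, against 12, 123, 11 and 140 on total reads. With TMM factors the 34 are 10.3% and the 77 are 23.4%, beside 14.6% and 13.9% of all starts. The 32 are 9.73% and the 66 are 20.1%, beside 19.5% and 19.8% of all starts. The median of all intergenic starts was -0.21 with either (-0.2105 and -0.2149), that of tRNA starts -0.67 and -0.68 (-0.6711 and -0.6754) and that of 18S-like starts -0.27 and -0.28. Under both factors the log2 ratios of the 5′ end of tRNA-Leu-CAG (0.11 with either, 0.1117 and 0.1073) and of the leading ladder start on chromosome 2 (0.03 with either, 0.0339 and 0.0295) reversed, and the former was 0.27 with the GC trend removed. The perfectly matching reads as depth moved the median of all intergenic starts to -0.78.

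A minimum of 50 reads left 3 starts at least 2-fold higher and 43 lower, 79 called lower, and medians of -0.64 (all, -0.637), -1.47 (tRNA) and -0.64 (18S-like, -0.6359). The 43 are 30.7% and the 79 are 56.4%, beside 26.4% and 51.9% of all 1001 starts of that depth. No minimum gave 492 higher and 6818 lower, but 3 and 72 called, and a median of -0.56 (-0.5579). The 6818 are 47.4% and the 72 are 0.501%, beside 42.4% and 0.528% of all starts. Exactly 1 perfect match gave 66 lower, 76 called lower, medians of -0.80 (all) and -1.57 (tRNA), shares of intergenic reads of 0.518% and 0.322%, and tRNA shares of 15.8% and 10.1%. The 66 are 39.3% and the 76 are 45.2%, beside 28.2% and 41.1% of all starts counted so. Overlap on the gene strand only gave 21 higher, 24 called higher, a median of -0.60 (-0.598), shares of 2.24% and 1.81% and tRNA shares of 9.45% and 6.703%. The 21 are 4.57% and the 24 are 5.22%, beside 5.98% and 8.61% of all starts. It also gave 38.5% called lower, beside 39.2% of all starts. Testing each exact tag gave medians of -0.56 (all), -1.05 (tRNA) and -0.56 (18S-like), beside -0.51 for all 2942 tags of the series tested. Of the intergenic tags 29.8% were at least 2-fold lower, beside 28.0% of all tags. The test called 30.7% of the intergenic tags lower, beside 39.2% of all tags, so the order seen with starts was reversed. Counting all tags of the same first 18 bases moved the tRNA median to -1.02, and removing the GC trend moved the medians to -0.68 (all) and -1.02 (tRNA). The denominator of perfectly matching reads gave shares of 1.11% and 0.667%, starts of at least 20 reads alone 0.386% and 0.236% with tRNA shares of 24.1% and 18.7%, and adding CCA-ended tags gave tRNA shares of 25.3% and 20.1% (20.15%).

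A further 3 alternatives were chosen after seeing the data. Adding 17-nucleotide tags moved the tRNA median to -1.29. Keeping 1 start per locus gave 7 higher, 37 lower, 43 called lower and a tRNA median of -1.29. The 7 are 7.22%, the 37 are 38.1% and the 43 are 44.3%, beside 6.4%, 28.5% and 38.6% of all starts counted so. For starts at least 2-fold higher the order was thus reversed, since with every start kept the shares were 3.65% and 5.86%. Leaving out the 18S-like starts gave 62 lower, 75 called lower and a median of -0.66. The 62 of 172 starts are a larger share than the 28.7% of all starts counted so. The 75 are 43.6%, beside 38.8% of all starts, whose median was then -0.50. The causes of these shifts were not tested where the alternative does not itself change which starts are counted. Of the 38 starts chosen by rule, 32 kept the sign of their log2 ratio with TMM factors and 6 did not, the 2 called ones named above and 4 that were not called on total reads. Of those that were not among these 2, 5 lost their call and 3 gained one, and with no minimum 7 lost their call. Adding 0.5 or 1 to every count changed no direction or call among them.

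No paired analysis was possible because there was 1 library per age, and for the same reason no replicate was left out. At 20 reads a start's log2 ratio has a counting SE of 0.65 at best, against 0.08 for the start with 1180 reads.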
